A study of Mus musculus with 8 samples.

Results

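The genes described here bring copper into cells, send it out, hand it between proteins or bind its excess. They are the importers Slc31a1 and Slc31a2, the exporting ATPases Atp7a and Atp7b, the plasma ferroxidase Cp, the chaperones Atox1 and Ccs, the regulator Commd1 and the metallothioneins Mt1 and Mt2. A row was taken as a member when its gene symbol was on this list. The rule uses no measured value, although the list was drawn up with earlier results of these data known. All 10 were found among the 34745 genes of the deposited table, each on 1 row, and all 10 were among the 16576 genes with enough reads to be tested.

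The libraries were made from mRNA of whole kidney tissue of wild-type mice, taken at day 14. There were 2 libraries of sham animals, 3 of animals labelled uIRI and 3 of animals labelled uIRI with MSCs transplantation, called uIRI+MSC here. The series title names stem cell-based therapy, renal senescence, copper flux and respiration as its subjects. The labels do not spell out either abbreviation, and they give no strain, age, cell source, cell dose or time of transplantation. They do not state that each library is its own animal. The p-values therefore measure only the spread between libraries, which may be technical.

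As background, copper enters mammalian cells mainly through CTR1, the product of Slc31a1, while CTR2, the product of Slc31a2, sits largely on intracellular membranes and is linked to copper storage and to the processing of CTR1. Inside the cell ATOX1 carries copper to the ATPases ATP7A and ATP7B, and CCS carries it to superoxide dismutase 1. Metallothioneins bind copper and zinc through their cysteines and are switched on by metals through the transcription factor MTF1, and also by glucocorticoids and oxidative stress. In the kidney the proximal tubule takes up much of the filtered metal and is the segment most easily hurt by loss of blood flow.

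Depth ran from 11592986 to 24300112 counts per library. Levels are given as CPM, counts per 1e6 after TMM scaling, a correction for differences in RNA composition, unless FPKM is named. A change was called when its Benjamini-Hochberg adjusted p from the quasi-likelihood test of edgeR, over all tested genes, was below 0.05. Scaling matters here: with library size alone in place of TMM, the log2 changes of the members in uIRI against sham all moved up by 0.65 to 0.67, and the median of all genes was 0.73 in place of 0.06. Mitochondrial genes took 14.2% of the counts in each sham library, between 3.49% and 4.84% of those in uIRI, and 6.07%, 6.24% and 11.3% of those in uIRI+MSC 1 to 3, so this share moved with every change from sham given below, and its part in them was not tested. The library uIRI+MSC 3 stood apart from its group in this. Its shortest genes were lower (median -0.19 on the log2 scale against the mean of the rest of its group, 4144 genes) and its longest higher (0.16, 4144 genes). Changes without this library are given for Slc31a2, Atox1, Ccs, Commd1, Mt2 and Sod1, for which it was the lowest of its group, and for genes of the mitochondrial list. It was also the lowest of its group for other genes of the copper lists described below.

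In uIRI kidneys the copper genes did not move in 1 direction. Slc31a2, Cp, Mt1 and Mt2 rose against sham, Slc31a1, Atp7b, Ccs and Commd1 fell, and Atp7a and Atox1 did not pass the test. Thus 8 of 10 were called, beside 54.6% of all tested genes, and the same 8 had an unadjusted p below 0.05, beside 60.2%. For 8 of 10 no uIRI library lay within the range of sham, beside 77.1% of all tested genes. The median log2 change of the members was 0.25, beside 0.06 for all tested genes. With library size alone 5 members were called higher and 3 lower, beside 9044 of the 16576 tested genes higher and 1989 lower.

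In uIRI+MSC against sham, Slc31a2, Cp and Mt2 rose, Slc31a1, Atp7b, Ccs and Commd1 fell, and Atp7a, Atox1 and Mt1 did not pass. These 7 of 10 stand beside 42.4% of all tested genes, and beside 51.1% of genes at an unadjusted p below 0.05, which the same 7 met. The libraries did not overlap for 7 of 10 members, beside 64.2% of all tested genes. With library size alone 5 were called higher and 2 lower, beside 7400 and 1352 of all 16576. Without sham 1 only 3 members were called (Slc31a1, Cp and Mt2), beside 22.8% of the genes tested in that fit, in which the lone sham library borrows its spread from the injured groups. Both injured groups were compared with the same 2 sham libraries, so these comparisons are not independent of each other.

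For uIRI+MSC against uIRI, the comparison that bears on the transplanted cells, edgeR called 0 of 10 members, beside 0% of the 16576 tested genes. At an unadjusted p below 0.05 there were 4 members (Slc31a1, Atp7b, Mt1 and Mt2) and 3418 genes in all, which is 20.6% of those tested. The libraries did not overlap for 4 of 10 members, beside 26.9% of all tested genes. DESeq2 called 1 member, Slc31a1, and 1364 genes in all, or 8.23%, and limma-voom called 0 of both. The intervals below give the sizes that the data allow.

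**Figure D1:**
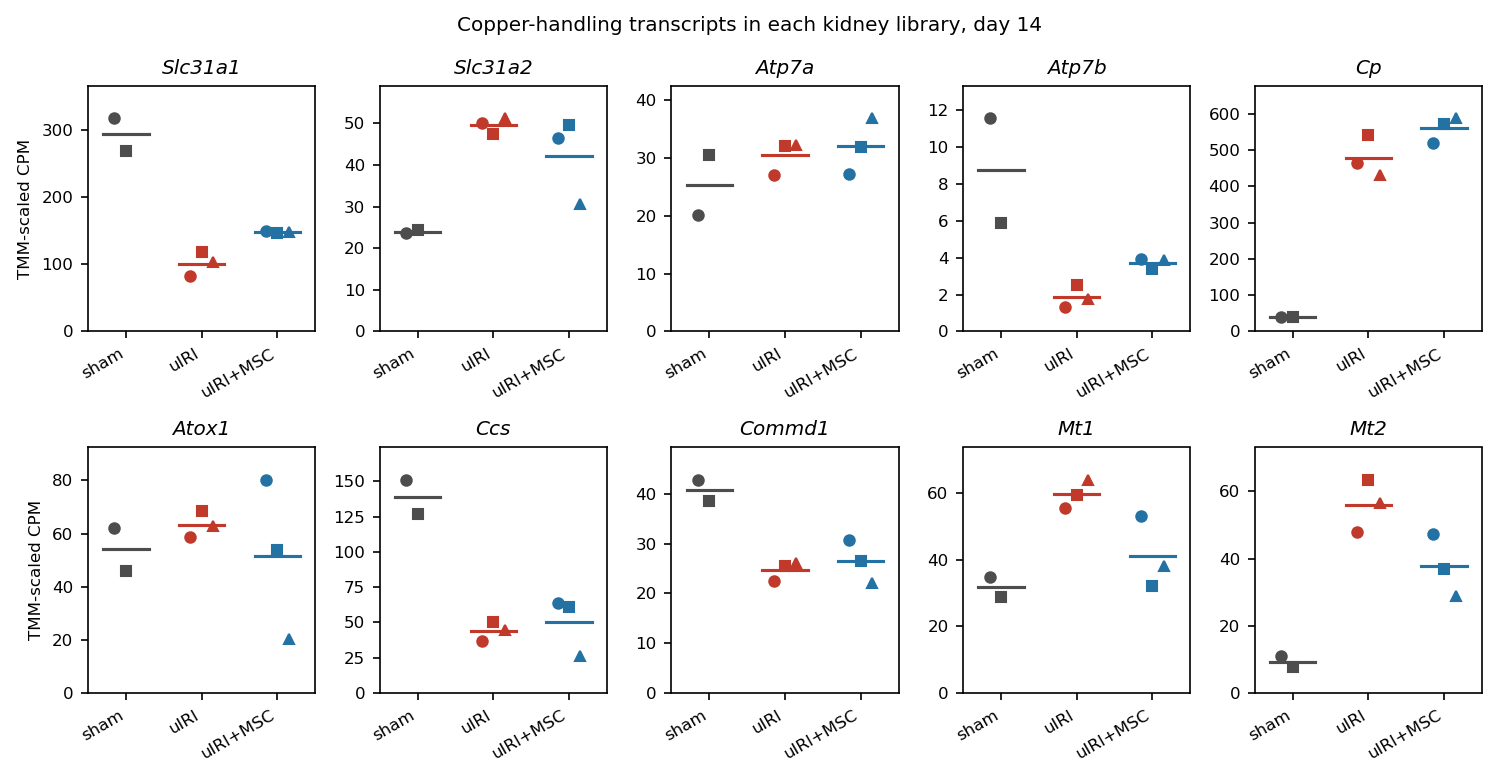
Level of each of the 10 copper genes in each of the 8 libraries, in TMM-scaled CPM, with 1 panel per gene and its own axis. Points are libraries (circle, square and triangle for replicates 1, 2 and 3) and horizontal bars are group means; Cp and Mt2 lie higher and Slc31a1 and Ccs lower in every injured library than in both sham libraries, while the groups overlap for Atp7a and Atox1.

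Among the importers, Slc31a1 fell and Slc31a2 rose. The gene for CTR1, Slc31a1 (ENSMUSG00000066150, chromosome 4, 62360727 to 62391769 on GRCm38), was at 317 and 268 CPM in sham, at 81.8, 117 and 103 CPM in uIRI 1 to 3, and at 150, 147 and 147 CPM in uIRI+MSC 1 to 3. The 3 groups did not overlap, with the uIRI libraries lowest. The change from sham to uIRI was -1.54 ± 0.17 (log2, SE), 2.91-fold lower, with an adjusted p of 0.000145 in edgeR. From sham to uIRI+MSC it was -0.98 ± 0.17 (adjusted p = 0.00216 in edgeR), 1.98-fold lower. Between the injured groups Slc31a1 was 0.56 ± 0.15 higher on the log2 scale in uIRI+MSC, with a 95% interval of 0.21 to 0.90, which did not pass the test (adjusted p = 0.123 in edgeR, and 0.0265 to 0.261 over 17 alternatives, of which only DESeq2 passed). Its span overlaps that of Cdc26 on the opposite strand.

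Slc31a2 (ENSMUSG00000066152, chromosome 4, 62262562 to 62298411) was at 23.6 and 24.3 CPM in sham. It was at 49.9, 47.4 and 51.2 CPM in the uIRI libraries and at 46.6, 49.5 and 30.6 CPM in uIRI+MSC 1 to 3. All 6 injured libraries lay above both sham libraries, and uIRI+MSC 3 was the lowest of them. The log2 change from sham was 1.05 ± 0.20 in uIRI (2.07-fold, adjusted p = 0.00259 in edgeR) and 0.82 ± 0.20 in uIRI+MSC (1.76-fold, adjusted p = 0.0119). The second of these calls was lost without sham 1 or sham 2 (0.83 and 0.88, adjusted p = 0.0742 and 0.0545 in edgeR; 0.000695 to 0.0742 over 17 alternatives). From uIRI to uIRI+MSC the log2 difference was -0.23, with an interval of -0.62 to 0.17, and it was -0.03 without uIRI+MSC 3, which left 1.04 for uIRI+MSC against sham.

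Read within each library per length, as a ratio of FPKM values, the balance of the importers changed order. Slc31a1 stood at 4.95 and 4.08 times the FPKM of Slc31a2 in sham, at 0.615, 0.927 and 0.750 times in uIRI, and at 1.20, 1.11 and 1.80 times in uIRI+MSC. No groups overlapped: Slc31a2 was the higher of the pair in all 3 uIRI libraries and Slc31a1 in all other libraries. This order rests on the lengths behind the FPKM, 7799 bases for Slc31a1 and 2917 for Slc31a2. In CPM, without regard to length, Slc31a1 was above Slc31a2 in every library. In uIRI 1 to 3 it was at 81.8, 117 and 103 CPM against 49.9, 47.4 and 51.2 CPM. With 0.1 added to each FPKM, the difference in mean log2 ratio was -2.58 for uIRI against sham, 0.83 for uIRI+MSC against uIRI and -1.75 for uIRI+MSC against sham. Each had an exact two-sided permutation p of 0.1, the smallest that these group sizes allow, and 0.112 after adjustment over the 9 ratio comparisons.

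Most tubule markers fell against sham, as Slc31a1, Atp7b, Ccs and Commd1 did, and unlike the members that rose. Among all tested genes 26.3% fell in uIRI and 20.3% in uIRI+MSC. All 10 genes of a proximal tubule list fell in uIRI against sham (median log2 change -3.0), and 9 of 10 fell in uIRI+MSC against sham (-1.63). Their summed level was 32777 to 45224 CPM in sham, 1549 to 5691 CPM in uIRI and 8075 to 12110 CPM in uIRI+MSC, and none was at 0 in any library. Of 6 markers of the thick limb and distal nephron, 5 fell in each injured group (median -2.31 and -2.51). Their sum was 10195 to 11945 CPM in sham and overlapped between uIRI (2222 to 3541 CPM) and uIRI+MSC (1240 to 3280 CPM). The part of these cell types in the changes of the copper genes was not tested. In bulk tissue, fewer cells of a type and less RNA per cell cannot be told apart.

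Among the exporters, Atp7a gave no call while Atp7b fell. Atp7a (ENSMUSG00000033792, chromosome X, 106027276 to 106124926), which is mutated in Menkes disease and exports copper from most cell types, was at 20.2 and 30.5 CPM in sham, 27.1, 32.1 and 32.3 CPM in uIRI, and 27.3, 32.0 and 37.0 CPM in uIRI+MSC. The groups overlapped, and sham 1 was the lowest library. The log2 changes were 0.27 ± 0.21 for uIRI against sham (interval -0.20 to 0.74), 0.34 ± 0.21 for uIRI+MSC against sham, and 0.07 for uIRI+MSC against uIRI (-0.34 to 0.48). With library size alone Atp7a would be called higher in both injured groups, by 0.92 and 0.84 (adjusted p = 0.00574 and 0.0123 in edgeR). Over 17 alternatives each, those adjusted p values ran to 0.944 and 0.766, and no other alternative passed.

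Atp7b (ENSMUSG00000006567, chromosome 8, 21992785 to 22060305), the Wilson disease gene, was the least abundant member, with 119 and 64 reads in sham, 39, 68 and 37 in uIRI, and 94, 47 and 46 in uIRI+MSC. In CPM this was 11.6 and 5.89 in sham, 1.31, 2.49 and 1.74 in uIRI, and 3.94, 3.36 and 3.86 in uIRI+MSC. The 3 groups did not overlap, although the sham libraries lay far apart. From sham to uIRI the log2 change was -2.23 ± 0.36, 4.70-fold lower (adjusted p = 0.000992 in edgeR), and it was -1.65 without sham 1.

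The fall of Atp7b in uIRI+MSC against sham, -1.23 ± 0.36 or 2.34-fold lower (adjusted p = 0.0237 in edgeR), was not stable. Leaving out sham 1 gave -0.63 (adjusted p = 0.292 in edgeR), and library size in place of TMM gave -0.70 (0.112). It also missed the threshold without any 1 of the uIRI+MSC libraries (-1.16 to -1.27, adjusted p = 0.0519 to 0.0639 in edgeR). The adjusted p over 17 alternatives ran from 0.00596 to 0.292, and 11 passed. Against uIRI, Atp7b was 1.01 ± 0.33 higher on the log2 scale in uIRI+MSC (interval 0.24 to 1.77), which did not pass the test (adjusted p = 0.156 in edgeR, 0.0737 to 0.414 over the alternatives).

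Per length, Atp7b was below Atp7a in every library. The FPKM ratio of Atp7b to Atp7a was 0.748 and 0.278 in sham, 0.0889, 0.123 and 0.0931 in uIRI, and 0.211, 0.159 and 0.156 in uIRI+MSC. The groups did not overlap, and the uIRI libraries were lowest. Mean log2 ratios differed by -2.18 for uIRI against sham, 0.78 for uIRI+MSC against uIRI and -1.40 for uIRI+MSC against sham, each with an exact permutation p of 0.1, the smallest possible (0.112 adjusted over the 9 ratio comparisons). Without sham 1 the differences from sham were -1.46 and -0.68, and with 1 in place of 0.1 added to each FPKM they were -1.18 and -0.88.

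Cp changed most of the members in fold. Cp (ENSMUSG00000003617, chromosome 3, 19957054 to 20009145) encodes ceruloplasmin, the copper-carrying ferroxidase of plasma and an acute phase protein, made mainly by the liver. It was at 40.3 and 39.3 CPM in sham, at 465, 542 and 430 CPM in uIRI, and at 520, 573 and 588 CPM in uIRI+MSC. Every injured library was above both sham libraries by a wide margin, and the injured groups overlapped. The log2 change from sham was 3.59 ± 0.18 in uIRI (12-fold, adjusted p = 2.34e-05 in edgeR) and 3.81 ± 0.18 in uIRI+MSC (14.1-fold, adjusted p = 3.7e-05), and both calls held under all 17 alternatives. The difference between uIRI+MSC and uIRI was 0.23 with an interval of -0.09 to 0.54.

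Macrophage and fibroblast markers rose with Cp against sham, where 28.3% of all tested genes rose in uIRI and 22.1% in uIRI+MSC. All 7 macrophage markers rose in uIRI against sham (median log2 change 4.0) and in uIRI+MSC against sham (3.34), with a summed level of 173 to 223 CPM in sham, 1471 to 2031 CPM in uIRI and 987 to 1112 CPM in uIRI+MSC. For uIRI+MSC against uIRI the median of these markers was -0.77, and none of them passed, while Cp was at 0.23. Of the fibroblast markers, 5 of 5 rose in uIRI against sham (median log2 change 4.07) and 4 of 5 in uIRI+MSC against sham (3.27). For uIRI+MSC against uIRI their median was -0.95, and none passed. The part of either list of markers in the change of Cp was not tested. Of 6 liver markers, the 4 tested all fell in uIRI, beside 26.3% of all tested genes that fell. The sum of the 6 was 67.6 to 135 CPM in sham, 4.01 to 13.0 CPM in uIRI and 5.58 to 16.7 CPM in uIRI+MSC. Most of it was Ttr, with a mean of 87.4 CPM in sham, where Alb was at 7.41 and Apoa1 at 0.94 CPM. The part of liver tissue in the level of Cp was not tested. Cp shares part of its span with Hps3 on the opposite strand, and the labels do not say whether reads were counted by strand.

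Of the chaperones, Ccs fell and Atox1 gave no call. Ccs (ENSMUSG00000034108, chromosome 19, 4825366 to 4839322), which loads copper into superoxide dismutase 1, was at 151 and 127 CPM in sham, 36.5, 50.2 and 44.4 CPM in uIRI, and 63.9, 60.9 and 26.2 CPM in uIRI+MSC. All injured libraries were below sham, and uIRI+MSC 3 was the lowest of all 8. From sham to uIRI the log2 change was -1.67 ± 0.33, 3.19-fold lower (adjusted p = 0.00275 in edgeR). From sham to uIRI+MSC it was -1.47 ± 0.33, 2.76-fold lower (adjusted p = 0.00775), and without sham 1 it was -1.30 and missed the threshold (adjusted p = 0.0643 in edgeR, 0.000156 to 0.0643 over 17 alternatives). Ccs differed between the injured groups by 0.21 (interval -0.48 to 0.89), and by 0.53 without uIRI+MSC 3, which left -1.13 for uIRI+MSC against sham.

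The enzyme that Ccs serves, Sod1, was looked up after its values were seen. Sod1 was at 493 and 353 CPM in sham, 99.1, 138 and 119 CPM in uIRI, and 208, 145 and 96.7 CPM in uIRI+MSC. It fell against sham in uIRI (-1.83 ± 0.30 on the log2 scale, adjusted p = 0.00108 in edgeR) and in uIRI+MSC (-1.50 ± 0.30, adjusted p = 0.00466). The second value was -1.23 without uIRI+MSC 3, and without sham 1 it was -1.20 and missed the threshold (adjusted p = 0.0527 in edgeR, 1.72e-05 to 0.0527 over 17 alternatives). As for Ccs, the groups did not overlap with sham, and uIRI+MSC 3 was the lowest library.

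Atox1 (ENSMUSG00000018585, chromosome 11, 55446641 to 55461239), which delivers copper to both ATPases, was at 62.0 and 46.0 CPM in sham, 58.7, 68.3 and 63.0 CPM in uIRI, and 80.3, 53.7 and 20.2 CPM in uIRI+MSC. The uIRI+MSC libraries held both the highest and the lowest value of all 8. In uIRI+MSC 3, Atox1 lay 1.70 log2 units below the mean of the other libraries of its group, a deviation below which only 0.953% of tested genes lay, and Ccs lay 1.25 below (2.71%). Both are short transcripts, with 792 and 1057 bases in the lengths behind the authors' FPKM, which places them in the shortest length class of the 4 with 4144 genes each. The log2 change of Atox1 was 0.23 for uIRI against sham (interval -0.79 to 1.25) and -0.07 ± 0.45 for uIRI+MSC against sham. Between the injured groups it was -0.29 (-1.20 to 0.61), and it was 0.09 without uIRI+MSC 3 (0.35 against sham), so no direction can be given for this gene.

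Commd1 (ENSMUSG00000051355, chromosome 11, 22896136 to 22982382) helps return the copper ATPases from endosomes, and its loss causes copper storage in dogs. It was at 42.8 and 38.6 CPM in sham, 22.4, 25.5 and 26.1 CPM in uIRI, and 30.6, 26.6 and 22.2 CPM in uIRI+MSC. All injured libraries were below both sham libraries. The log2 change was -0.72 ± 0.16 in uIRI (1.65-fold lower, adjusted p = 0.00504 in edgeR) and -0.62 ± 0.16 in uIRI+MSC (1.54-fold lower, adjusted p = 0.0149), with a difference of 0.11 between the injured groups (interval -0.23 to 0.44). Without uIRI+MSC 3 these last values were -0.47 against sham and 0.23 against uIRI.

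This was the member whose call rested most on the scaling. Library size in place of TMM gave a change of -0.06 in uIRI and -0.10 in uIRI+MSC (adjusted p = 0.773 and 0.628 in edgeR, the highest over 17 alternatives each). The uIRI call was also lost without sham 1 (-0.62, adjusted p = 0.0553), and the uIRI+MSC call without sham 1 (-0.51, 0.132) and without sham 2 (-0.66, 0.0539). The lowest adjusted p over the alternatives were 0.000549 and 0.00375. Its span overlaps Zrsr1 on the opposite strand and Gm28048 on the same strand.

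**Figure D2:**
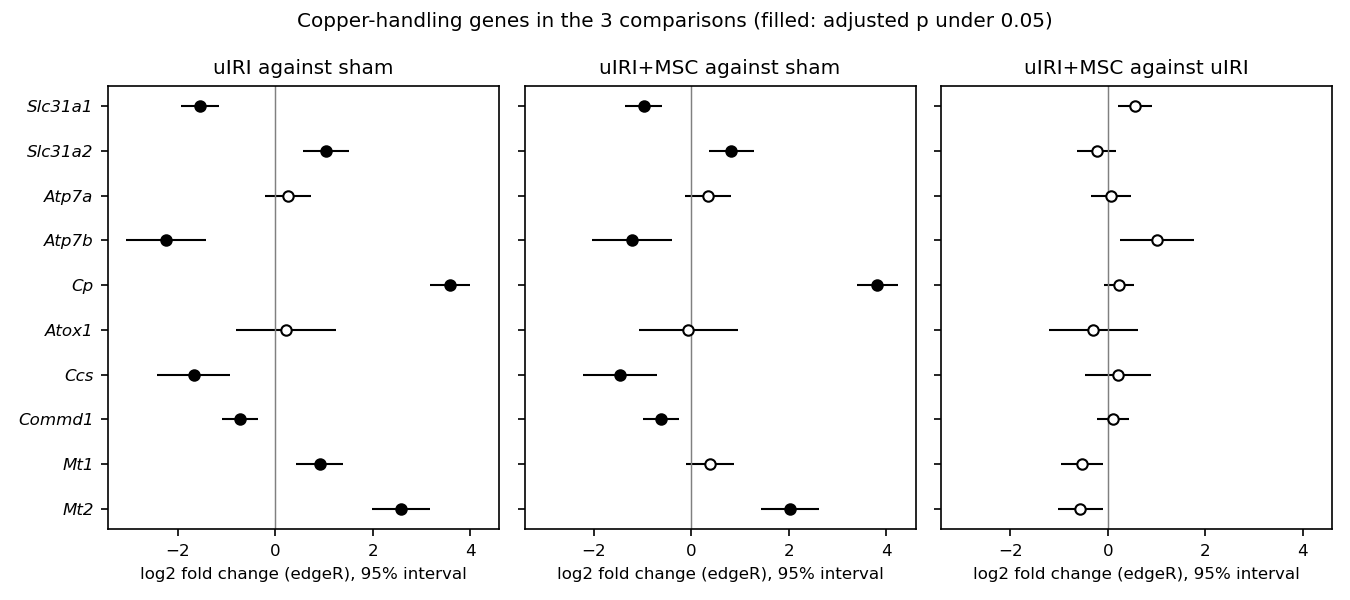
Log2 fold change of each copper gene in the 3 comparisons, with bars for the 95% interval from edgeR, a vertical line at 0 and filled points for an adjusted p under 0.05. Against sham the changes run from -2.23 for Atp7b to 3.81 for Cp; for uIRI+MSC against uIRI the intervals of Slc31a1, Atp7b, Mt1 and Mt2 lie off 0 before adjustment and the others cross it.

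The metallothioneins rose in uIRI, and their genes lie side by side on chromosome 8, Mt2 (ENSMUSG00000031762) at 94172618 to 94173567 and Mt1 (ENSMUSG00000031765) at 94179089 to 94180325, 5521 bases apart. Their promoters carry metal response elements, to which MTF1 binds, and are shown for that reason. The 250 bases before the start of each gene, from RefSeq on GRCm38.p6, read 5′ to 3′ on the plus strand; capitals mark matches to the core of the element (TGCACNC or TGCGCNC, either strand, which cannot match the same bases).
Mt1 (chr8:94178839-94179088): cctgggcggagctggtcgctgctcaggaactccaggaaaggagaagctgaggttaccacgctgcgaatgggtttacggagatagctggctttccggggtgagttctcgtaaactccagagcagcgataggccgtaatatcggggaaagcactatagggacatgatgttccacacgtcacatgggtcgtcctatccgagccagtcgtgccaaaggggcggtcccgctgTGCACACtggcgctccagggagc
Mt2 (chr8:94172368-94172617): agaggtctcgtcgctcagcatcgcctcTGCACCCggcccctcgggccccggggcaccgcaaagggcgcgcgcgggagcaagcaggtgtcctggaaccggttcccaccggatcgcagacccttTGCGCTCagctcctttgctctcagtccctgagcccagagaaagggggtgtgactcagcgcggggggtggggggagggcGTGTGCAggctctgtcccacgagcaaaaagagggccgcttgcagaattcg

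The match of Mt1 begins 23 bases before the start. Those of Mt2 begin 223, 128 and 50 bases before it, the last on the reverse strand. At least 3 matches in 250 bases were found in 1.26% of 32851 windows before gene starts, and at least 1 in 21.4%. With the 50 bases after the start, Mt1 held 3 and Mt2 held 4 matches, beside 1.97% of windows with at least 3 and 0.517% with at least 4. Of these matches, 2 of Mt1 and 1 of Mt2 lay after or across the start. The count before the start thus depends on where it is placed, and the spans of both genes differ from those of the GENCODE annotation. Windows were on hand for 9 of the 10 members: Atp7a held 2 matches, Slc31a2, Atp7b and Commd1 held 1 in each window, and Slc31a1, Atox1 and Cp held 0. A match is a stretch of letters and not a measured binding site.

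Mt1 was at 34.7 and 28.7 CPM in sham, 55.4, 59.5 and 64.1 CPM in uIRI, and 53.1, 32.2 and 38.0 CPM in uIRI+MSC. All uIRI libraries lay above the others, and the uIRI+MSC libraries overlapped with sham. The log2 change from sham was 0.91 ± 0.22 in uIRI (1.88-fold, adjusted p = 0.00695 in edgeR), and it missed the threshold without sham 2 (0.80, adjusted p = 0.0566 in edgeR, 0.000297 to 0.0566 over 17 alternatives). In uIRI+MSC it was 0.38 ± 0.21 (interval -0.11 to 0.86, adjusted p = 0.185 in edgeR), and it was 0.90 on library size alone (adjusted p = 0.00707, in a range of 0.00707 to 0.503 over the alternatives). Mt1 differed from uIRI by -0.53 ± 0.19 on the log2 scale in uIRI+MSC (interval -0.96 to -0.11), which did not pass (adjusted p = 0.169 in edgeR, 0.0847 to 0.36 over the alternatives).

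Mt2 moved further than its neighbour. It was at 10.9 and 7.83 CPM in sham, 47.9, 63.5 and 56.5 CPM in uIRI, and 47.4, 37.0 and 28.9 CPM in uIRI+MSC, with no overlap between any groups. The change from sham was 2.58 ± 0.26 in uIRI (5.99-fold, adjusted p = 0.000112 in edgeR) and 2.02 ± 0.26 in uIRI+MSC (4.05-fold, adjusted p = 0.000614). Both calls held under all 17 alternatives. Against uIRI the log2 difference was -0.56 ± 0.21 (interval -1.03 to -0.10), which did not pass (adjusted p = 0.183 in edgeR, 0.104 to 0.348 over the alternatives), and it was -0.39 without uIRI+MSC 3, the lowest of its group (2.21 against sham).

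Within a library, the FPKM of Mt2 was 0.306 and 0.266 times that of Mt1 in sham, 0.841, 1.04 and 0.857 times in uIRI, and 0.868, 1.12 and 0.740 times in uIRI+MSC. The injured groups overlapped with each other and lay above sham. The mean log2 ratio differed from sham by 1.67 in uIRI and by 1.65 in uIRI+MSC, each with an exact permutation p of 0.1, the smallest possible (0.112 adjusted over the 9 ratio comparisons). Between the injured groups it differed by -0.02 (exact permutation p = 1). Mt1 and Mt2 encode related proteins, and how any reads that fit both genes were treated is not stated in the labels or headers.

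**Figure D3:**
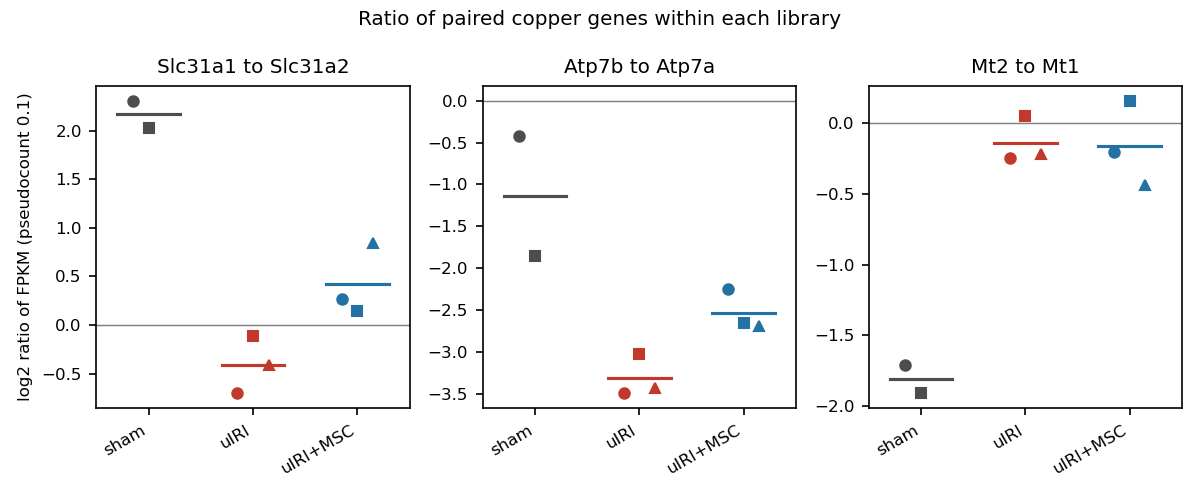
Ratio of FPKM values within each library, on a log2 axis after adding 0.1, for Slc31a1 to Slc31a2, Atp7b to Atp7a and Mt2 to Mt1; points are libraries and bars are group means. The first pair of ratios is lowest in uIRI (means -0.41 and -3.31) and highest in sham (2.17 and -1.13), while Mt2 to Mt1 is near 0 in both injured groups and -1.81 in sham.

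The order of the members by FPKM, a per-length level that can be compared between genes within a group, also shifted. In sham Ccs led with a mean of 96.6 FPKM, followed by Atox1 (49.9) and Mt1 (43.0), which overlapped, then Slc31a1 (27.5), Mt2 (12.3), Slc31a2 (6.05) and Commd1 (4.07), with Cp (2.00) and Atp7a (1.9) overlapping and Atp7b last (0.820). In uIRI the overlapping pair Mt1 (129) and Mt2 (117) led, ahead of Atox1 (93.2), Ccs (48.1), Cp (38.2), Slc31a2 (19.8) and Slc31a1 (15.0), then Commd1 (3.91) and Atp7a (3.60), which overlapped, and Atp7b (0.277). Thus Cp moved from the eighth place to the fifth, and Mt2 from the fifth to the second.

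In uIRI+MSC the first 5 members, Mt1 (79.9 FPKM), Mt2 (71.5), Atox1 (68.5), Ccs (50.3) and Cp, each overlapped with the next, so their order is not settled by these libraries. Slc31a1 (19.9) was above Slc31a2 (15.3) without overlap, Commd1 (3.79) and Atp7a (3.41) overlapped, and Atp7b was again last (0.505). FPKM depends on the length the authors used, which ran from 540 bases for Mt1 to 14615 bases for Cp. It was 9870 bases for Atp7a, 7799 for Slc31a1, 7725 for Atp7b and 7349 for Commd1. The per-length levels of Cp and of these genes are therefore low for their read counts.

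Other copper genes, in 5 lists with 45 genes of which 40 were tested, went both ways. In uIRI 10 rose, 16 fell and 14 did not pass against sham, beside 28.3% of all tested genes that rose and 26.3% that fell. With library size alone 19 were called higher and 7 lower, beside 9044 and 1989 of all 16576 tested genes. Without sham 1 a total of 17 were called in place of 26, beside 37% of genes tested in that fit. In uIRI+MSC against sham 6 rose, 11 fell and 23 did not pass, beside 22.1% and 20.3% of all tested genes, and with library size alone 18 were called higher and 7 lower, beside 7400 and 1352 of all. For uIRI+MSC against uIRI edgeR called 0 of 40, with 8 at an unadjusted p below 0.05, beside 20.6% of all tested genes. DESeq2 called 2, beside 8.23% of all, Loxl3 (-0.67 on the log2 scale, adjusted p = 0.0391) and Steap2 (0.62, adjusted p = 0.0206).

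Of 9 tested genes that deliver copper to mitochondria and cytochrome c oxidase, 6 fell in uIRI and 5 in uIRI+MSC, and 0 rose in either. These counts stand beside 26.3% and 20.3% of all tested genes that fell, and the list medians were -0.83 and -1.07 (log2 change). On library size alone 3 and 4 fell, and 0 rose, and without sham 1 only 3 fell in uIRI. Slc25a3, which carries phosphate and copper into the mitochondrial matrix, went from 1181 ± 31.5 CPM (SD, n = 2) in sham to 456 ± 75.3 (n = 3) in uIRI and 564 ± 54.3 (n = 3) in uIRI+MSC. Its log2 change was -1.37 ± 0.18 in uIRI (adjusted p = 0.000383 in edgeR) and -1.07 ± 0.18 in uIRI+MSC (adjusted p = 0.00233). The assembly factor Coa6 fell by 1.58 and 1.39 on the log2 scale in the same comparisons, and Cox11, which hands copper to the oxidase, fell by 1.28 in uIRI. The library uIRI+MSC 3 was the lowest of its group for every gene of this list except Sco2. Without it, Slc25a3 was at -0.96, Coa6 at -1.24, Cox11 at -0.98, Cox19 at -0.78 and Cmc2 at -1.35 in uIRI+MSC against sham. All of these still passed in edgeR, but the order of the list medians in uIRI and uIRI+MSC depends on that library.

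In uIRI+MSC against sham Cmc2 fell by 1.52 (adjusted p = 0.00136 in edgeR). Against uIRI the smallest p in the mitochondrial list belonged to Cmc2 (-0.69 on the log2 scale, adjusted p = 0.137 in edgeR), Slc25a3 (0.31, 0.338) and Sco2 (0.33, 0.404), and none passed. Proximal tubule markers and the share of counts from mitochondrial genes were lower in the same samples, as given above, and their part in these changes was not tested.

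Enzymes that use copper went both ways. Of 13 tested of 16, 8 rose and 2 fell in uIRI (median 1.74), and 5 rose and 2 fell in uIRI+MSC (1.07). Of all tested genes 28.3% rose and 26.3% fell in uIRI, and 22.1% rose and 20.3% fell in uIRI+MSC. Without sham 1 the log2 changes of Aoc3, Heph and Moxd1 in uIRI were 1.28, 1.61 and 3.33, in place of 1.61, 1.74 and 4.25. Of the 5 lysyl oxidases, which cross-link collagen and elastin, 4 rose in both injured groups. Loxl4, named after its values were seen, did not pass (0.25 and 0.24 on the log2 scale). On library size alone Loxl4 passed as higher in both (0.93 and 0.77), as did other genes of the enzyme list in each group. Loxl1 went from 14.3 ± 0.611 CPM (SD, n = 2) in sham to 126 ± 25.7 (n = 3) in uIRI and 95.1 ± 14.3 (n = 3) in uIRI+MSC, with log2 changes from sham of 3.13 ± 0.23 and 2.73 ± 0.22 (adjusted p = 3.33e-05 and 9.71e-05 in edgeR).

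Loxl3 rose by 3.70 in uIRI and 3.05 in uIRI+MSC, and Loxl2 by 3.33 in uIRI, both on the log2 scale. Fibroblast markers moved with them: 5 of 5 rose in uIRI (median 4.07) and 4 of 5 in uIRI+MSC (3.27), and their summed level was 279 to 386 CPM in sham, 3342 to 7926 CPM in uIRI and 2021 to 3676 CPM in uIRI+MSC. Their part in the change of the lysyl oxidases was not tested. Against uIRI, Loxl3 (-0.65, adjusted p = 0.13 in edgeR), Sod3 (0.72, 0.163) and Loxl2 (-0.74, 0.178) had the smallest p among the enzymes and did not pass.

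Aoc1, a diamine oxidase that breaks down histamine and putrescine, was at 2.82 and 8.10 CPM in sham, 116, 196 and 102 CPM in uIRI, and 232, 275 and 191 CPM in uIRI+MSC. It rose in uIRI+MSC against sham by 5.40 ± 0.51 on the log2 scale (adjusted p = 0.000168 in edgeR), and the injured groups overlapped in level. Sod3, the secreted superoxide dismutase, was at 803 and 643 CPM in sham, 129, 258 and 190 CPM in uIRI, and 355, 313 and 281 CPM in uIRI+MSC. The 3 groups of Sod3 did not overlap, with uIRI lowest. Its log2 change in uIRI+MSC against sham was -1.19, and -0.99 without sham 1.

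Of the zinc and metallothionein relatives only 2 of 4 were tested. Slc30a1, the zinc exporter ZnT1, which like Mt1 and Mt2 is a textbook target of MTF1, was at 165 and 131 CPM in sham, 50.7, 58.6 and 62.9 CPM in uIRI, and 57.4, 77.1 and 68.8 CPM in uIRI+MSC. It fell by 1.36 in uIRI (adjusted p = 0.000284 in edgeR) and by 1.13 in uIRI+MSC (adjusted p = 0.00131), opposite in sign to Mt2. Mtf1 itself was at -0.16 ± 0.15 in uIRI against sham and at 0.04 ± 0.15 in uIRI+MSC, and did not pass (adjusted p = 0.394 and 0.867 in edgeR); on library size alone it was at 0.51 and 0.55 and passed. The differences between the injured groups, 0.24 for Slc30a1 and 0.19 for Mtf1, did not pass (adjusted p = 0.42 and 0.442 in edgeR).

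Of the 5 metalloreductases and divalent metal transporters, 2 rose and 2 fell in uIRI (median 0.56) and 1 rose and 1 fell in uIRI+MSC (0.36). The counts in uIRI+MSC are near the shares of all tested genes, 22.1% that rose and 20.3% that fell. In uIRI those shares were 28.3% and 26.3%. Steap4, a metalloreductase that reduces copper and iron before uptake, went from 3.16 ± 0.214 CPM (SD, n = 2) in sham to 16.2 ± 2.84 (n = 3) in uIRI and 14.3 ± 2.38 (n = 3) in uIRI+MSC, changes of 2.35 ± 0.25 and 2.17 ± 0.25 (adjusted p = 0.000135 and 0.000391 in edgeR). Slc11a2, the divalent metal transporter DMT1, fell by 1.51 in uIRI and by 0.94 in uIRI+MSC (adjusted p = 0.000388 and 0.00643 in edgeR), and Steap2 fell by 0.74 in uIRI (adjusted p = 0.00824). On library size alone Slc11a2 was at -0.42 in uIRI+MSC and Steap2 at -0.08 in uIRI, and neither passed. Without sham 1 Slc11a2 was at -0.86 in uIRI+MSC and missed the threshold, and without sham 2 only 2 genes of the list were called in uIRI, Steap2 (-0.52) no longer among them. Steap1 was at 0.97 in uIRI+MSC against sham and did not pass (adjusted p = 0.0682 in edgeR). Against uIRI the values of Steap2 (0.64), Slc11a2 (0.57) and Steap3 (-0.41) did not pass in edgeR (adjusted p = 0.118, 0.15 and 0.257).

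Of 11 relatives and partners of Commd1 in the COMMD and CCC complexes, which sort membrane proteins at endosomes, 5 fell in uIRI (median -0.39) and 2 in uIRI+MSC (-0.40), and 0 rose. The count in uIRI+MSC is near the 20.3% of all tested genes that fell there, and the share in uIRI was 26.3%. Commd6 went from 43.8 ± 2.93 CPM (SD, n = 2) in sham to 23.0 ± 2.00 (n = 3) in uIRI and 25 ± 2.74 (n = 3) in uIRI+MSC, changes of -0.93 ± 0.14 and -0.81 ± 0.15 (adjusted p = 0.000783 and 0.00277 in edgeR). Commd9 fell by 0.79 and 0.66, and Ccdc22 fell by 0.77 in uIRI. Without sham 1 only 2 genes of the list were called in uIRI and 1 in uIRI+MSC, and without sham 2 the uIRI count was 3. Ccdc22 in uIRI and Commd9 in uIRI+MSC missed the threshold without either sham library, and Commd9 in uIRI without sham 2. As for Commd1, all 5 calls in uIRI were lost with library size alone, under which others of the list passed as higher, so the direction of this list depends on the scaling. Commd3 was at -0.45 in uIRI+MSC against sham (adjusted p = 0.0685), and against uIRI Ccdc22 (0.37, adjusted p = 0.302), Ccdc93 (0.20, 0.338) and Commd7 (-0.20, 0.473) did not pass in edgeR.

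**Figure D4:**
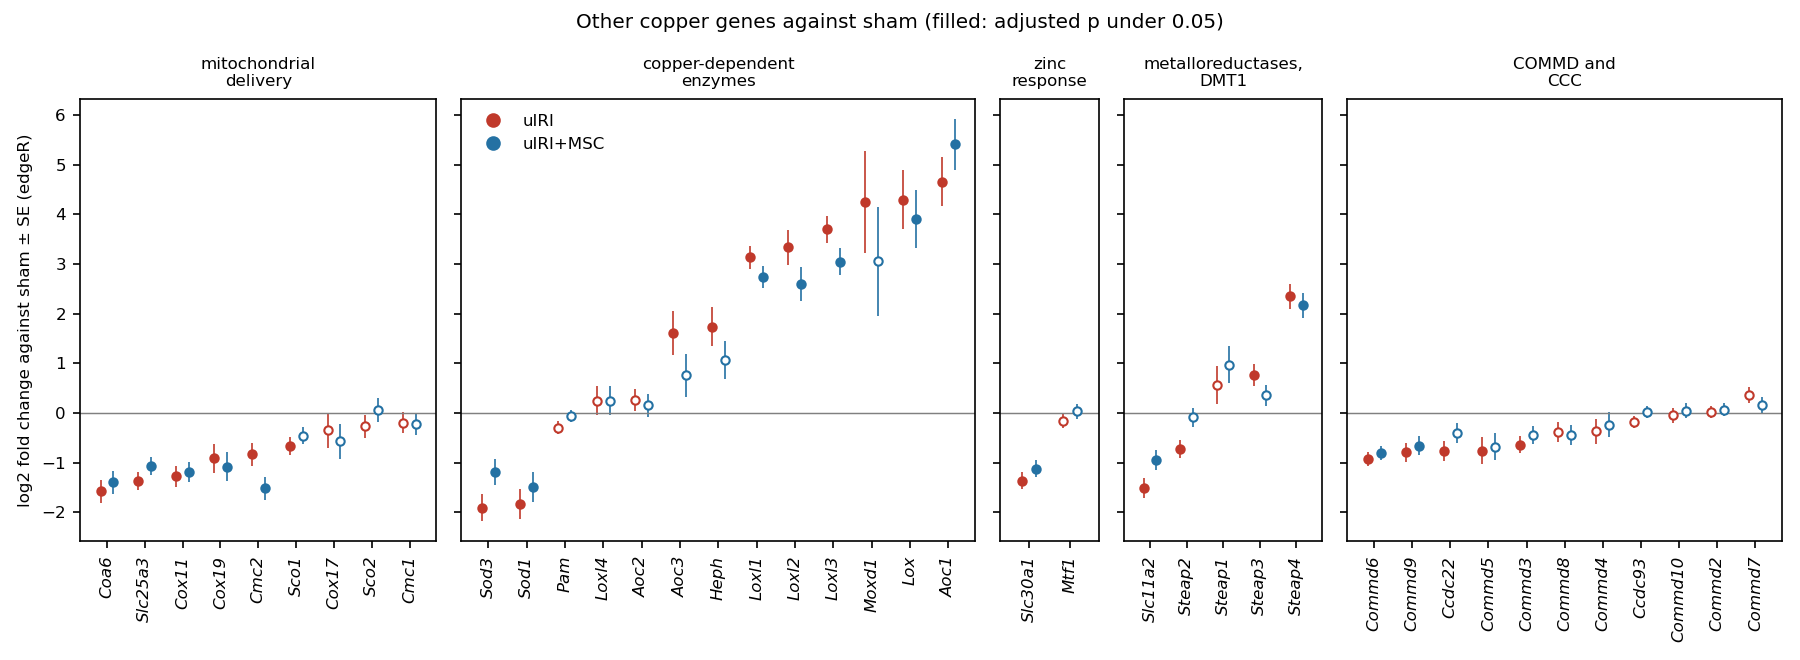
Log2 fold change of each tested gene of the 5 other copper lists for uIRI against sham and uIRI+MSC against sham, with bars for the SE and filled points for genes that passed the edgeR test at an adjusted p of 0.05. The mitochondrial and COMMD lists hold calls below 0 and none above, and the copper-dependent enzymes spread from Sod3 and Sod1 below 0 to Aoc1 at 5.40.

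Genes with the pattern most like a member were sought over the 8 libraries by the root mean square difference of centred log2 CPM. Nearest to Slc31a1 were Gpam, an acyltransferase of triglyceride synthesis (0.05), Rab3ip (0.06) and Dhrs11 (0.08), of 7355 genes compared. Nearest to Atp7b were Pxmp4 (0.14), Arsg (0.19) and Adk (0.19), of 7356. For Cp they were Dpysl3 (0.19), Akr1b8 (0.22) and Ctxn1 (0.24), and for Mt1 they were Ramp3 (0.15), Plod1 (0.15) and H3f3a-ps2 (0.16). Thus Slc31a1 had companions closer than 0.1, and the other 3 members did not. Counting noise adds to these distances and differs between members, with 37 to 119 reads for Atp7b and 1756 to 3582 for Slc31a1. The distances are therefore not comparable between members. These likenesses come from the same 8 libraries and their shared depths, and they are given as a description.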

How the data were processed

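Gene-level expression was measured by RNA sequencing of mouse kidney in 8 libraries. Per the file headers, the count values were deposited by the authors as raw reads per gene, and the FPKM values were deposited as counts scaled by gene length and depth. The submitters' processing notes name GRCm38, HISAT2 2.0.4, StringTie 1.3.3b, SAMtools 1.9, Bowtie2 2.2.6, edgeR 3.2.0 and FastQC 0.10.1, with no role or order.

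Libraries were grouped by their treatment label. Genes were kept by filterByExpr (minimum count 10) in edgeR 4.0.16 under R 4.3.3, scaled by TMM, and fitted over all 8 libraries with glmQLFit (legacy=TRUE) and glmQLFTest, with group as the only term. An SE is the log2 change over the square root of F, and a 95% interval uses the total degrees of freedom of that fit. FPKM served for levels between genes and for ratios, with a pseudocount of 0.1 and an exact permutation test. Replicate pairs differed by 22.2 to 84.6 times the variance of counting, as a mean over genes with at least 100 counts in the pair. This mean used library totals without TMM and is weighted to abundant genes. It does not show how far counting set the precision of genes with few reads, such as Atp7b. Across the 8 libraries 0 other columns of values were present. The fit was checked on simulated data.

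Members were taken by gene symbol, from a list that, like the other lists, was drawn up with earlier results of these data known. All members are named, with the 3 smallest p per other list and comparison, and the 3 genes nearest in pattern to Slc31a1, Atp7b, Cp and Mt1 with a mean of at least 5 FPKM. Alternatives were DESeq2 1.42.0, limma-voom (limma 3.58.1), robust dispersions, other scalings and filters, fits of 2 groups only, a replicate block and leaving out each library.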

Additional observations from a re-analysis of the deposited data

How the results depend on the processing

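Of the log2 changes of single members, 479 kept their direction and their side of the threshold over the alternatives, 16 lost a call, 4 gained one and 11 changed sign, and all that changed sign were for Atp7a, Atox1, Ccs or Commd1 without a call. Members called ranged from 7 to 8 for uIRI against sham and from 3 to 7 for uIRI+MSC against sham over the fits without 1 library, with 3 without sham 1. Genes of the other copper lists called ranged from 17 (without sham 1) to 27 and from 13 to 20. DESeq2 called 1 member and 2 of the other copper genes for uIRI+MSC against uIRI. The cause of these changes was not tested.

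For uIRI+MSC against uIRI, library size in place of TMM gave -0.081 for Atp7a and -0.044 for Commd1. Leaving out 1 library gave -0.031 to 0.17 for Atp7a (with -0.01 without uIRI 1), -0.78 to 0.094 for Atox1, -0.0028 to 0.53 for Ccs, and -0.016 to 0.23 for Commd1. The log2 ratio of Mt2 to Mt1 differed by -0.18 to 0.12, with 0.076 without uIRI 2 and 0.0011 without uIRI+MSC 1. For uIRI+MSC against sham, Atox1 was at 0.46 with library size, and at -0.55 to 0.35 with 1 library left out, of which 0.20 without sham 1. With FPKM + 1 in the ratio of Atp7b to Atp7a, the differences from sham were -1.18 and -0.88.

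No statement in the labels ties libraries that share a replicate number. Same-numbered uIRI and uIRI+MSC libraries had correlations of their deviations of -0.05, 0.07 and -0.09. So few values cannot exclude a pairing. With the replicate number as a block 8 members were called for uIRI against sham, 0 for uIRI+MSC against uIRI and 5 for uIRI+MSC against sham, where Atp7b (-1.21, adjusted p = 0.0764 in edgeR) and Commd1 (-0.59, 0.0516) missed the threshold and Atox1 was at 0.060. The block moved the genes called in all from 9044 to 7959 and from 7029 to 5753.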
